A study of Mus musculus with 40 samples.

Results

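A3, C2, C3 and C5 are 4 of 20 immortalised preadipocyte lines made from the brown adipose tissue of C57BL/6 mice. Preadipocytes are the committed precursors of fat cells, and brown fat is the fat depot that burns lipid to make heat. The 4 lines were chosen on measured values of these same libraries, which set them apart with high Plac8 and Cd34 and low Zic1 and Pparg, and they gave 8 of the 40 libraries. Every gene in both stages therefore counts as used by the choice, and differences between the 4 lines and the other 16 are given as a description with no test. The change between stages within the 4 lines is another contrast over the same libraries and was tested across all genes. Its p-values are printed only for genes that were not picked for their level in the 4 lines, and the marker genes and genes picked for a difference between lines are described without one.

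Each line gave 1 library of undifferentiated cells and 1 library of cells differentiated for 8 days. All lines share the strain and the passage range of 6 to 12, and all differentiated cultures received insulin, T3, indomethacin, dexamethasone and IBMX at induction and were then kept in T3 and insulin. The groups are thus 4 undifferentiated and 4 day 8 libraries of A3, C2, C3 and C5, against 16 and 16 of the other lines. The letter in a line's name is not explained by the labels, nor do they say whether lines share an animal or a clone, or how they were immortalised. With a single culture of a line in each stage, differences between lines include those of culture and library preparation.

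Fat cell formation is driven by the nuclear receptor Pparg and the transcription factor Cebpa, which switch on each other and the genes of lipid storage. Cd34 is a surface protein of blood and stromal progenitors, and Plac8 encodes a small cysteine-rich protein that mouse studies have linked to brown fat. Zic1 is a zinc finger transcription factor that marks the brown fat lineage in mice. Hox and T-box genes encode patterning factors whose levels in cultured stromal cells often keep a record of where in the embryo the cells came from.

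The files give raw counts per gene symbol, and levels are given as CPM, counts scaled to an equal library size after TMM normalisation. Counts on genes ranged from 23045773 to 25693327 in the undifferentiated libraries of the 4 lines and from 31471983 to 35514058 on day 8, within the ranges of the other 16 lines in both stages. A count of 3, the limit that 0 counts allows, was worth 0.113 to 0.133 CPM before and 0.0813 to 0.0939 CPM after differentiation in the 4 lines, and such limits cover counting error only. On day 8 the 4 lines had 18542 to 18747 genes with at least 1 count, against 17291 to 18464 in the other lines, and before induction 17.1% to 17.7% of their tallied reads aligned to several places, against 15.7% to 17.1%. The part of either difference in the results below was not tested. Counting settings differed between the files of the 2 stages, so stage and counting cannot be told apart, while the comparisons between lines are made within a stage.

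Plac8 separated the 4 lines from all others in both stages. In undifferentiated cells it stood at 48.6 CPM in A3, 69.3 in C2, 171 in C3 and 94.3 in C5, and in the other 16 lines at 0.0865 to 16.6 CPM with a median of 1.53. On day 8 the values were 279.9, 157, 426 and 267 CPM, against 0.804 to 87.0 with a median of 34.1. The lowest of the 4 lines thus exceeded the highest of the others, D1 before induction and C6 on day 8, without overlap.

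Cd34 was high in the same 4 lines but did not separate them. Undifferentiated levels were 259 CPM in A3, 174 in C2, 453 in C3 and 398 in C5, and ranged from 1.23 to 279.6 CPM in the other lines with a median of 12.6. Line D1, at 279.6 CPM, lay above A3 and C2. On day 8 Cd34 stood at 238, 145, 286 and 216 CPM, against 0.476 to 211 with a median of 17.6, and C6, D5 and D1 overlapped the 4 lines.

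Zic1 was close to or below the limit of detection in A3, C2 and C3 before induction, at 0.225, 0.0443 and 0.0397 CPM, and at 0.964 CPM in C5. The median of the other lines was 42.1 CPM, with B3 at 0.116 and B1 at 0.245 CPM as low as the 4 lines and the remaining 14 lines above them. On day 8 the 4 lines held 0.163, 0.318, 0.939 and 3.08 CPM against a median of 33.2, and B3, B1 and D1 fell within their range. Low Zic1 was therefore shared by the 4 lines without being limited to them.

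Pparg separated the lines before induction and no longer did so on day 8. It stood at 12.1, 17.1, 9.77 and 11.8 CPM in undifferentiated A3, C2, C3 and C5, below each of the other lines, which ranged from 20.7 (D2) to 163 CPM (B6). After 8 days the levels were 264, 385, 328 and 216 CPM, against 20.6 (C6) to 709 CPM (B6) with a median of 489. Of the other lines 13 lay above all 4, 1 lay within their range, and C6 and D5 lay below.

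**Figure D1:**
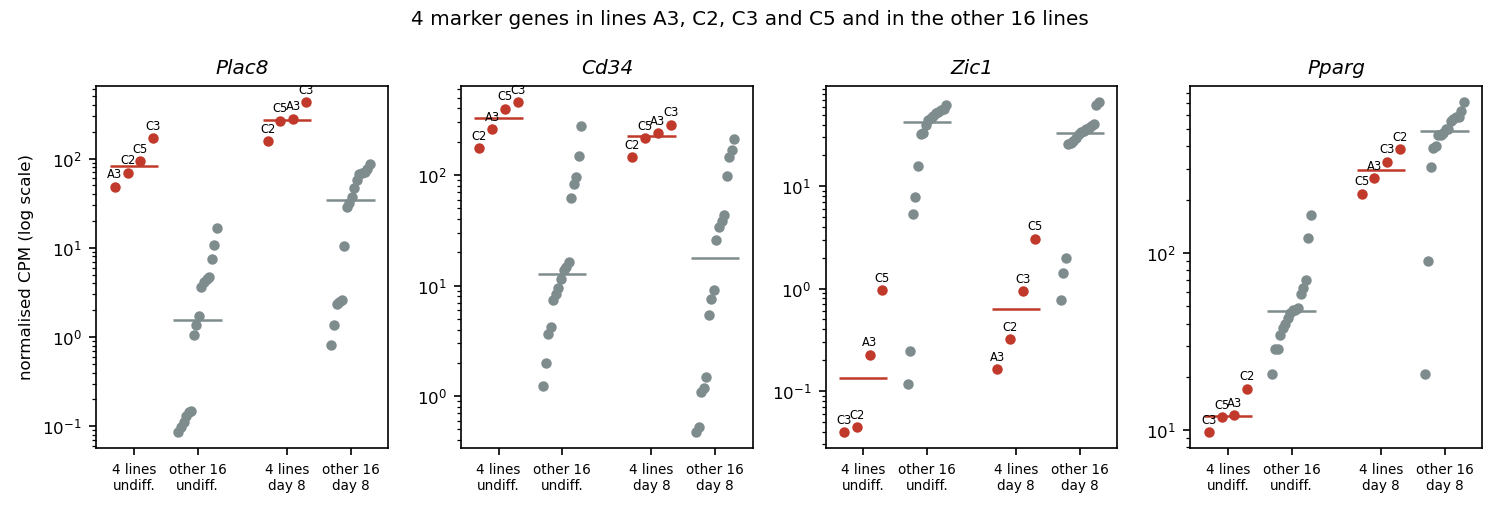
Normalised CPM (log axis) of Plac8, Cd34, Zic1 and Pparg, with 1 point per line; red points are lines A3, C2, C3 and C5, grey points the other 16 lines, and bars the medians. Plac8 does not overlap in either stage, and Pparg does not overlap in undifferentiated cells but does on day 8, where 2 of the other lines lie below all 4.

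A gene is called apart here where each of the 4 lines lay above, or each below, all other 16 lines and the mean log2 CPM differed by at least 1, which is 2-fold. In undifferentiated cells 37 of 13998 genes were apart with higher values in the 4 lines (0.264%) and 79 with lower values (0.564%). On day 8, 157 of 15241 genes were apart and higher (1.03%) and 29 apart and lower (0.19%). Since the lines were chosen on these values, nothing is read from these shares. Line A3 and line C2 narrowed the first count most. Without A3 the undifferentiated count was 259 in place of 116 and without C2 it was 203, with 116 and 114 of the 116 genes still among them, and on day 8 the counts were 295 and 300 in place of 186. A rule over fewer lines is easier to meet by construction.

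Genes apart in both stages numbered 7 with higher values, which is 18.9% of the undifferentiated and 4.46% of the day 8 list. Besides Plac8 they were Asb4, Six2, Traf1, Mamstr, Sykb and 4930511M06Rik. Another 9 were lower in both stages, 11.4% and 31% of the respective lists, namely Hoxa5, Hoxa6, Itga9, Eml2, Pcdhga4, 1700012B15Rik, Gm3604, AK149188 and AK165854. No gene was apart in opposite directions.

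Before induction the 4 lines shared high levels of patterning factors that most other lines barely expressed. Tbx20, a T-box factor known from heart development, stood at 17.1, 26.2, 34.6 and 45.2 CPM in A3, C2, C3 and C5, and at 0.0736 to 9.65 CPM in the other lines with a median of 0.621. Six2, a homeobox factor known for keeping kidney progenitors undifferentiated, stood at 27.9, 23.4, 30.4 and 30.3 CPM, against 0 to 16.6 with a median of 0.884. Neither gene overlapped between the sets, and their nearest neighbours were A6 for Tbx20 and B4 for Six2.

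Of 43 tested patterning factors outside the Hox clusters, Tbx20 and Six2 were apart and higher, and the median log2 difference was -0.17, beside 0.00 over all tested genes and 0.06 when the 4 lines were set against only the 5 other lines of letters A and C. Tbx15 and Shox2, which in mouse fat are known from particular depots, were already high before induction without being apart. Tbx15 stood at 223, 261, 256 and 261 CPM, with a median of 86.4 in the other lines, of which B1 exceeded all 4. Shox2 stood at 80.3, 108, 109 and 112 CPM against a median of 35.9, and D2, at 95.5 CPM, lay above A3. On day 8 both were apart, as was Six2, which made 3 of 48 tested factors, and the median log2 difference of the list was 0.83 beside -0.03 over all genes. Day 8 Tbx15 reached 171 to 242 CPM in the 4 lines and 137 CPM at most in the others, and day 8 Shox2 55.4 to 82.6 CPM with 55.0 CPM in C6 as the nearest value.

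Several Hox genes of the A and C clusters were low in the 4 lines. Hoxa5, Hoxa6, Hoxa7 and Hoxc5 were apart and lower before induction among 31 tested Hox genes, where 0.564% of all genes were, and the median log2 difference of the list was -0.50. Hoxa5 and Hoxa6 were apart and lower on day 8 among 32, where 0.19% of all genes were, with a median of -0.28. Undifferentiated Hoxc5 had 0.338, 0, 0.794 and 1.38 CPM in A3, C2, C3 and C5, and 5.58 to 27.8 CPM in the other lines. Hoxa5 stood at 2.78, 3.85, 4.21 and 5.33 CPM, against 8.13 to 47.8. In both genes the 4 lines formed the low end with no overlap.

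Hoxc6 and Hoxc8 had the same low levels in the 4 lines, and there the lines B1 and B3 joined them. Undifferentiated Hoxc6 was 0.676, 0.133, 1.23 and 2.14 CPM in the 4 lines, 0.463 in B3 and 0.736 in B1, against a median of 42.5 CPM. Hoxc8 was 0.188, 0, 0.119 and 0.839 CPM, 0.540 in B3 and 0.409 in B1, against a median of 9.27 CPM. Zic4, the neighbour of Zic1 in the mouse genome, had 0 counts in A3, C2 and C3, and also in B1 and B3, against a median of 2.44 CPM. B1 and B3 thus had low Zic1, Zic4, Hoxc6 and Hoxc8 without the high Plac8, which stood at 7.56 and 1.04 CPM in those 2 lines.

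**Figure D2:**
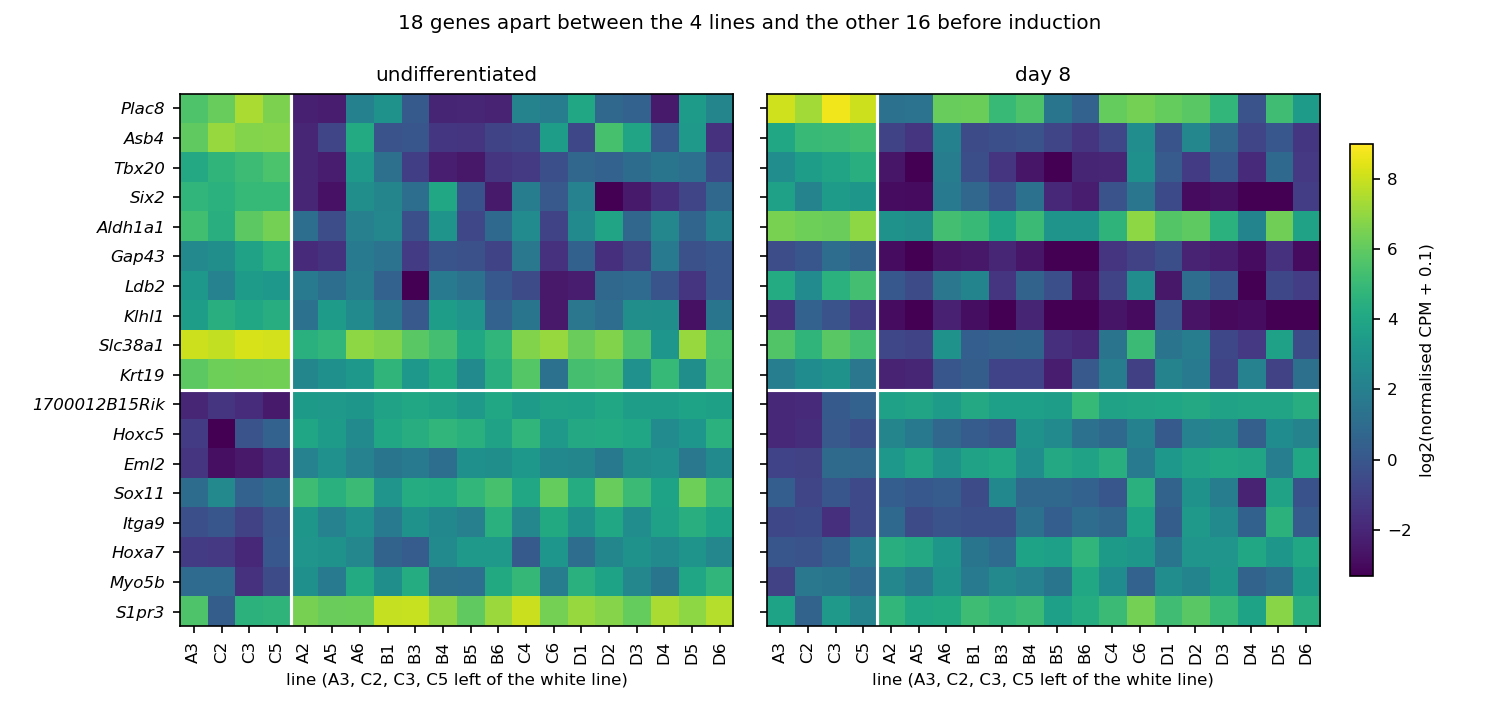
Heat map of log2(normalised CPM + 0.1) for 10 higher and 8 lower genes of the largest differences among those apart in undifferentiated cells, in undifferentiated (left) and day 8 libraries (right), with lines A3, C2, C3 and C5 left of the white line. Plac8, Asb4 and Six2 stay brighter in the 4 lines on day 8, and 1700012B15Rik, Eml2 and Itga9 stay darker.

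The other genes with the largest excess before induction came from unrelated roles. Asb4, which encodes an adaptor of a ubiquitin ligase, stood at 64.0, 139, 106 and 109 CPM in A3, C2, C3 and C5, against 0.149 to 42.3 with a median of 0.657. Aldh1a1, an enzyme that makes retinoic acid, stood at 38.1, 21.6, 59.9 and 85.5 CPM, against 0.477 to 14.5. Slc38a1, a glutamine transporter, stood at 266, 232, 307 and 284 CPM, against 8.69 to 139. None of the 3 overlapped, and for Asb4 the nearest of the other lines were D2 and A6, at 42.3 and 18.2 CPM.

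Gap43, a protein of growing nerve endings, and Klhl1, a Kelch protein known from neurons, were apart at lower levels. Gap43 ranged from 5.41 to 22.9 CPM in the 4 lines and from 0.186 to 3.33 in the others, and Klhl1 from 11.7 to 21.7 against 0.0453 to 11.6. The transcription cofactor gene Ldb2 ranged from 4.30 (C2) to 10.7 CPM (C3), against 0 to 3.65. Klhl1 in A3, at 11.7 CPM, lay next to B4 at 11.6, so its separation was slight. Krt19, a keratin of simple epithelia and mesothelium, stood at 59.7, 76.9, 80.9 and 82.1 CPM, against 2.31 to 54.1 CPM.

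Among the genes lower before induction, 1700012B15Rik and Eml2 showed the widest gaps. 1700012B15Rik had 0.150, 0.266, 0.199 and 0.0839 CPM in the 4 lines and 9.20 to 16.5 CPM in the others. Eml2, which encodes a microtubule-binding protein, had 0.263, 0.0443, 0.0794 and 0.168 CPM, against 2.07 to 9.37. In 1700012B15Rik the lines split into 2 levels with nothing between 0.266 and 9.20 CPM. Day 8 values kept that split, at 0.163, 0.174, 1.03 and 1.38 CPM against 10.7 to 30.3.

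Other genes with large deficits before induction had varied roles. Itga9, an integrin chain, stood at 0.437 to 0.886 CPM against 3.39 to 22.5, and the progenitor transcription factor gene Sox11 at 1.39 to 5.45 CPM against 8.50 to 78.3. S1pr3, a receptor for sphingosine 1-phosphate, was 48.3 CPM in A3, 1.15 in C2, 24.3 in C3 and 25.9 in C5, against 62.6 to 259, so that C2 lay far below the other 3 as well. Myo5b, a vesicle motor, ranged from 0.238 to 1.88 CPM against 2.14 to 29.6. Myo5b and Sox11 no longer separated on day 8, where Sox11 stood at 0.492 to 1.17 CPM in the 4 lines and 0.124 to 22.5 CPM in the others.

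Pparg and Zfp423 were apart and lower before induction among 31 tested adipogenic transcription factors, Klf5 was apart and higher, and 28 were not apart, with a median log2 difference of -0.22. Zfp423, a zinc finger regulator of preadipocyte commitment in mice, stood at 0.222 to 0.413 CPM in the 4 lines and 1.18 to 13.4 CPM in the others. Cebpa stood at 4.51, 2.30, 3.26 and 3.48 CPM with a median of 49.7 in the other lines, where B1, at 2.70 CPM, was the only overlap. Prdm16, a regulator of brown fat identity, was apart and lower, at 0.413, 0.0443, 0.0794 and 0.335 CPM against 0.521 to 8.82, levels near the limit of detection in 2 of the 4 lines.

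By day 8 the 4 lines had formed fat cells by their RNA. Cebpa reached 314, 371, 246 and 227 CPM in A3, C2, C3 and C5, with a median of 562 in the other lines. Adipoq, which encodes the fat cell hormone adiponectin, stood at 631, 814, 707 and 525 CPM, with a median of 893. Fabp4, a fatty acid binding protein, stood at 724, 1010.1, 963 and 779.9 CPM, with a median of 1269. In each of these genes the 4 lines lay in the lower part of the range of the other 16, above C6 and D5, whose Adipoq was 15.3 and 217 CPM.

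Not 1 of 38 genes of lipid storage and fat cell hormones was apart on day 8, where 1.03% of all genes were apart and higher and 0.19% apart and lower. Their median log2 difference was -0.20 beside -0.03 over all genes. Against only the 5 other lines of letters A and C, the median was 0.35, again with none apart, so the direction of the list depended on the lines compared. Lines C6, D5 and D2 were left out together as an alternative. C6 and D5 were the lowest of all 20 lines for Pparg, Cebpa, Adipoq and Plin1, while D2 held 808 CPM of Adipoq. Without those 3 lines, 7 of the 38 were apart and lower, while 351 genes were apart and lower and 781 apart and higher over all genes. With all 20 lines, 15241 genes were tested on day 8. The same 3 lines move the full day 8 count from 186 to 1132. In bulk RNA, fewer fat cells and less RNA per fat cell cannot be told apart.

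Genes of heat production and oxidation lay lower still on day 8. The median log2 difference over 25 tested thermogenic and brown fat genes was -1.14, with none apart. Without C6, D5 and D2 it was -1.63 with 9 apart and lower, beside 351 over all genes. Against only the 5 other lines of letters A and C it was -0.58 with 1 apart and lower, beside 93 over all genes. That gene was Zic1, which is on this list and is also a marker of the choice of lines. Ppara, a nuclear receptor of fatty acid oxidation, stood at 5.64, 3.53, 8.17 and 4.66 CPM in A3, C2, C3 and C5, with a median of 30.6 in the other lines. Acacb and Plin5 are members of the lipid storage list and not of the thermogenic one. Acacb, an acetyl-CoA carboxylase, stood at 61.5, 55.7, 81.9 and 60.5 CPM, with a median of 193. Plin5, a lipid droplet protein of oxidative tissue, stood at 4.47, 1.59, 4.82 and 1.44 CPM with a median of 13.1. For Acacb and Plin5, 14 lines lay above all 4 and C6 and D5 lay below, and for Ppara C6 and D5 fell among them.

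Ucp1, the uncoupling protein of brown fat, was 0.0813, 0.231, 0.814 and 0.621 CPM on day 8, with a median of 1.27 and a highest value of 52.1 CPM (B6) in the other lines. Cidea, which coats lipid droplets and marks brown fat, was 0.163, 0.694, 11.0 and 1.16 CPM, with a median of 7.05, so that C3 alone of the 4 exceeded that median. Prdm16 reached 1.17, 0.289, 2.00 and 1.41 CPM with a median of 6.77. Although these cells come from brown fat, their day 8 libraries thus held little RNA of Ucp1 and Zic1, which are defining genes of that tissue. Leptin RNA was 3.82 CPM in A3, 36.5 in C2, 23.8 in C3 and 8.10 in C5, with a median of 4.04 and a highest value of 73.4 CPM in the others.

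**Figure D3:**
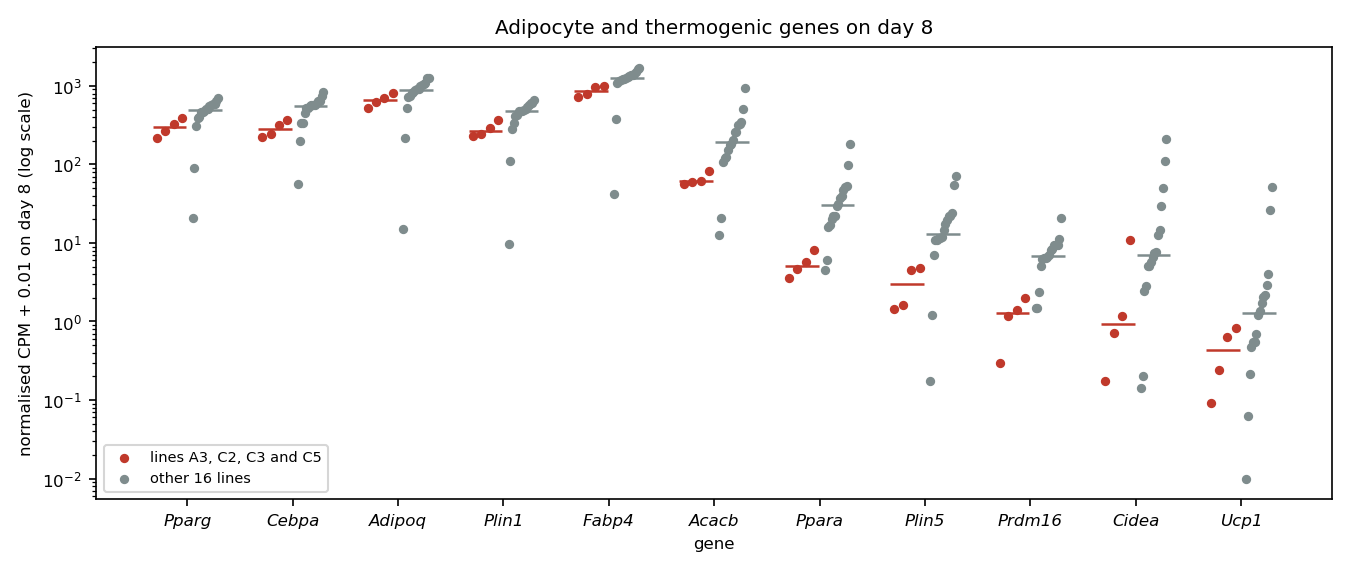
Day 8 levels (normalised CPM + 0.01, log axis) of 11 adipocyte and thermogenic genes, with 1 point per line; red points are lines A3, C2, C3 and C5, grey points the other 16 lines, and bars the medians. In Fabp4, Acacb and Plin5, 14 grey points lie above all 4 red points and 2, C6 and D5, lie below them, and the 4 red points of Cidea spread from 0.163 to 11.0 CPM.

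Interferon-stimulated genes formed the largest group among the genes apart on day 8 in any list. Interferons are secreted antiviral signals whose receptors activate STAT and IRF factors, and these bind short promoter elements rich in GAAA. Of 30 listed genes of interferon response and antigen presentation, 12 were apart and higher in the 4 lines, where 1.03% of all tested genes were. They were Mx1, Mx2, Ifit3, Ifi44, Isg15, Oas1a, Oas2, Oasl2, Irf7, Usp18, Ddx58 and Ifih1, and the median log2 difference of the list was 1.37 beside -0.03 over all genes. In undifferentiated cells none of 28 tested members was apart and the list's median was -0.55.

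Mx1, an antiviral GTPase, stood at 117, 109.8, 113 and 126 CPM in A3, C2, C3 and C5 on day 8, and at 0.381 to 92.8 CPM in the other lines with a median of 7.78. Oas1a, Oas2 and Oas3 encode oligoadenylate synthetases, which activate an RNA-degrading enzyme. Oas2 stood at 193, 190.5, 231 and 249.7 CPM, against 0.595 to 176 with a median of 26.9. Oas3, not on the list but among the genes with the largest day 8 differences, stood at 47.3, 66.9, 48.1 and 50.9 CPM, against 0.0952 to 20.4 with a median of 6.15. The 4 lines lay close together, while the other 16 spread from near the limit of detection up to 92.8, 176 and 20.4 CPM, below all 4. For Mx1, Oas1a and Oas2 the nearest lines were C6 and D5, and for Oas3 they were B4 and D3.

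Oas1a stood at 130.1, 168, 184 and 194 CPM, against 1.05 to 125. It has near-identical neighbours such as Oas1g, which was apart too, at 42.2 to 58.1 against 0.143 to 33.5 CPM. Reads that align to several places were tallied apart from genes, so such copies may be undercounted. Rsad2, an antiviral enzyme, stood at 250.2, 240.3, 218 and 229 CPM and was not apart, because D2 held 248 CPM. Without C6, D5 and D2, 17 of the 30 listed genes were apart and higher. The count over all genes went from 157 of 15241 tested to 781. Before induction the 4 lines held at most 0.0397 CPM of Mx1, 0.133 of Oas2 and 0.0751 of Oas1a, while undifferentiated D1 held 0.537, 1.37 and 5.23 CPM.

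**Figure D4:**
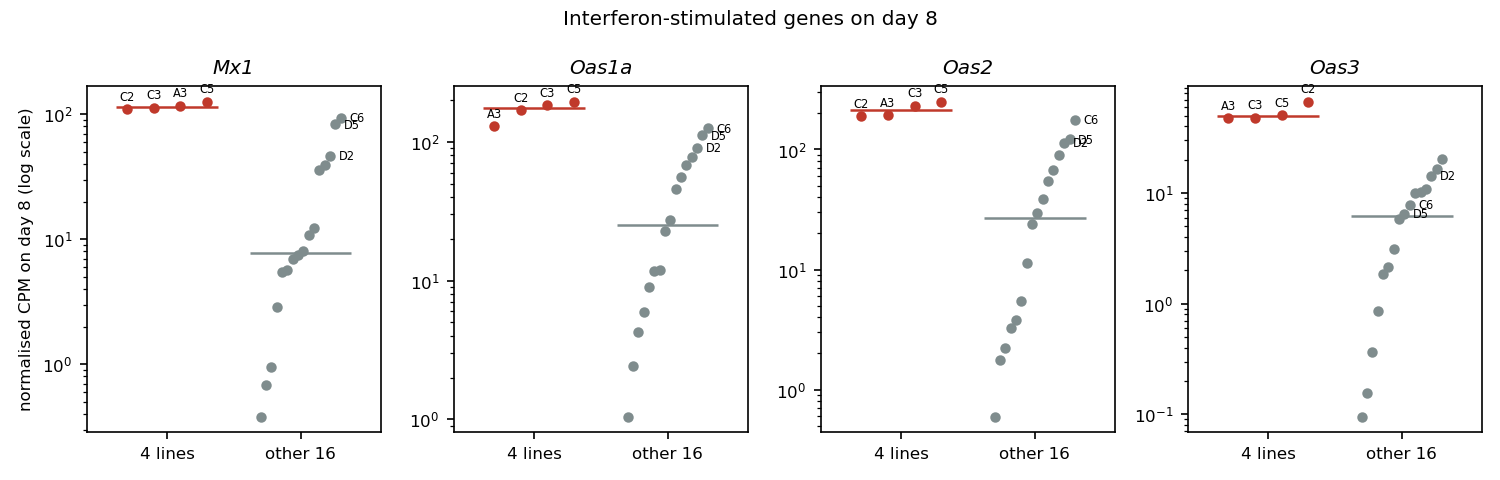
Day 8 levels (normalised CPM, log axis) of Mx1, Oas1a, Oas2 and Oas3, with 1 point per line; red points are lines A3, C2, C3 and C5, grey points the other 16 lines with C6, D5 and D2 named, and bars the medians. In each gene the 4 red points lie above all grey points.

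Promoters of 4 interferon-stimulated genes that were apart on day 8 are shown to make the interferon element visible, written 5′ to 3′ on the strand of the gene from 250 bases before to 50 bases after the transcript start, as RefSeq gives them on build GRCm38.p6. The counts themselves were made on build mm9. Capitals mark GAAANNGAAA, or its reverse complement, with overlapping matches merged. They lie at chr4:156200769-156201068, minus strand (Isg15), chr19:34583279-34583578, plus strand (Ifit3), chr5:120907476-120907775, minus strand (Oas1a) and chr5:120777610-120777909, minus strand (Oas3).
Isg15: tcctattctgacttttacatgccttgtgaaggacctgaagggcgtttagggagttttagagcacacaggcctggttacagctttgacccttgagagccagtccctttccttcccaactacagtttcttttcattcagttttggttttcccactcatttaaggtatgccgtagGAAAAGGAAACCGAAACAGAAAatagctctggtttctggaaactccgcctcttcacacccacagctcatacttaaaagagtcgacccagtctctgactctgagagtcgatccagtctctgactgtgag
Ifit3: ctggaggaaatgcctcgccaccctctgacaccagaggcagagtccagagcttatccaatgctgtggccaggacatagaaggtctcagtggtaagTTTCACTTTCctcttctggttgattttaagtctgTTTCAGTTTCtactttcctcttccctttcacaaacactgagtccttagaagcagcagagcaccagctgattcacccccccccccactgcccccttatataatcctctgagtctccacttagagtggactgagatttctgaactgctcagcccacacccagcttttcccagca
Oas1a: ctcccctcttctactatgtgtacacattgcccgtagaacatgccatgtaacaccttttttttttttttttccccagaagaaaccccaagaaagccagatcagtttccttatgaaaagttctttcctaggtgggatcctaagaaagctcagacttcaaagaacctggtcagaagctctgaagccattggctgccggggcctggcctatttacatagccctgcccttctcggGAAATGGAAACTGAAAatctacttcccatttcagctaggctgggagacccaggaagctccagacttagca
Oas3: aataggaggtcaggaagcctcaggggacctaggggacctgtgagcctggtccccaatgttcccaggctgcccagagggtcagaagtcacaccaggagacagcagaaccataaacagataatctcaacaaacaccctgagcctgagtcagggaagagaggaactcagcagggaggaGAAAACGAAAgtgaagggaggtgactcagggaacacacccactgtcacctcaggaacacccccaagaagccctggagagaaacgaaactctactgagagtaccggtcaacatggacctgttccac
Isg15 holds 3 overlapping matches on its own strand, Oas1a 2 overlapping ones and Oas3 1, while Ifit3 holds 2 on the opposite strand. Of the 12 listed genes apart on day 8, 8 had a promoter entry and 5 of these held the motif, and of the 18 listed genes that were not apart 15 had an entry and 7 held it. Over all 27025 genes with an entry the share was 3.99%. Among the 37 genes higher before induction, 22 had an entry and none held the motif. A match describes letters in this window and shows no binding. Isg15, a ubiquitin-like protein, and Ifit3, an RNA-binding antiviral protein, were picked after their values were seen. Day 8 Isg15 ranged from 416 to 468 CPM in the 4 lines and from 8.88 to 339 in the others, and day 8 Ifit3 from 599 to 689.7 CPM against 9.92 to 579.

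The remaining genes with the largest day 8 excess were not interferon genes. Cngb3, a channel subunit of cone photoreceptors, stood at 9.08, 11.7, 14.2 and 17.4 CPM in A3, C2, C3 and C5, against 0 to 2.87 in the other lines. Aqp1, a water channel, stood at 52.8, 22.8, 51.5 and 83.6 CPM, against 0.341 to 13.9. Arhgap36, an activator of Hedgehog signalling, stood at 6.70, 35.8, 9.11 and 9.65 CPM, against 0.0541 to 6.55. A3 lay next to D4 for Arhgap36, whereas Cngb3 and Aqp1 left a gap. Cngb3 had 0 counts in all 4 undifferentiated libraries, and Aqp1, at 20.8 to 87.5 CPM, overlapped B3 and B4 in that stage.

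Traf1, an adaptor of tumour necrosis factor receptors, stood at 6.94, 3.59, 9.45 and 5.95 CPM on day 8, against 0 to 2.16 in the other lines. Rpl39l, a ribosomal protein gene that may be undercounted where reads also align to a close relative, stood at 53.5, 65.3, 58.2 and 37.2 CPM, against 0.216 to 30.8. Before induction Rpl39l was as high, at 60.1 to 89.5 CPM, and 1 other line, D2, reached 88.7. Sprr1a, a precursor of the skin's cornified envelope, stood at 25.9, 36.4, 59.0 and 87.1 CPM, against 0.650 to 25.0, with D1 next to A3.

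Few genes were apart and lower on day 8. Slc40a1, the iron exporter ferroportin, stood at 2.28, 1.76, 2.13 and 1.38 CPM, against 4.06 to 93.2 with a median of 14.3. Cyp2d22, a cytochrome P450, stood at 16.1, 7.72, 7.20 and 3.27 CPM, against 16.5 to 126 with a median of 31.0. Slc40a1 was clearly separated, while A3 and D3 almost met for Cyp2d22. Before induction both genes overlapped, with Slc40a1 at 0.397 to 0.839 CPM in the 4 lines and a median of 0.602 in the others.

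Progenitor and stromal markers went with the lines unevenly. Of 35 tested on day 8, Plac8 and Ly6c1 were apart and higher, where 1.03% of all genes were, and the median log2 difference was 0.86. Before induction Plac8 alone of 29 was apart and higher, where 0.264% of all genes were, and the median was 0.11. Plac8 is among the markers of the choice of lines. Ly6a, the progenitor antigen Sca1, stood at 71.4, 11.9, 39.4 and 41.7 CPM before induction, inside the other lines' range of 5.81 to 149. On day 8 it stood at 737, 466, 667 and 606 CPM, where 15 of the other lines lay below all 4 and D2, at 549 CPM, lay among them. Pdgfra, the receptor that marks fat cell progenitors, was 101 CPM in undifferentiated A3 and 2.13, 6.32 and 7.59 CPM in C2, C3 and C5. Thy1, another stromal surface marker, was 47.1 CPM in A3 and 0.443, 4.53 and 2.01 CPM in the other 3. For these 2 genes A3 was close to the medians of the other 16 lines, 73.0 and 75.9 CPM, and the rest of the 4 were far below.

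In each stage 1 matrix gene was apart. None of 28 collagens and 1 of 42 other matrix genes were apart before induction, and 1 of 30 and none of 46 on day 8. Over all genes 0.264% were apart and higher and 0.564% apart and lower before induction, and 1.03% and 0.19% on day 8. The median log2 difference of 28 collagens was -0.51 before induction and that of 30 was 0.64 on day 8, and of 42 and 46 other matrix genes -0.39 and 0.82. Thbs2, a matrix glycoprotein, was apart and lower before induction, at 195 to 360.1 CPM against 540.2 to 1884, and Col4a6, a basement membrane collagen chain, was apart and lower on day 8, at 0.0271 to 0.407 CPM against 0.476 to 10.4. Dcn, the proteoglycan decorin, stood at 139, 222, 408 and 660.1 CPM on day 8, against 1.61 to 229.6 with a median of 59.8. Spp1, osteopontin, stood at 89.3, 155, 288 and 188 CPM, against 2.76 to 99.5 with a median of 13.4, and Mmp3, a matrix protease, at 66.2, 10.1, 34.7 and 23.0 CPM against 0 to 18.4. The 4 lines lay at the upper end in all 3, where C6, D5, B1 and D1 overlapped them for Dcn, A6 for Spp1, and C6 and A6 for Mmp3.

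Imprinted genes of the Dlk1-Meg3 region were nearly silent in their maternal RNAs. Undifferentiated Meg3, a long noncoding RNA, had at most 0.0886 CPM in the 4 lines and Rian, another, at most 0.0419, against medians of 18.9 and 22.0 CPM in the other lines. Some of the other lines were as low, among them A5 and B5 with 0 counts of both. Dlk1, the paternally expressed inhibitor of fat cell formation from the same region, was present at 125, 2.61, 41.9 and 103 CPM before and 382, 19.6, 515 and 794 CPM on day 8. C2 stood far below the other 3 lines for Dlk1 in both stages.

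Most genes of secreted signals were not apart. Before induction 0.264% of all genes were apart and higher and 0.564% apart and lower, and on day 8 1.03% and 0.19%. Wnt10b, a Wnt ligand that holds back fat cell formation in mice, stood at 16.4 (C3) to 33.5 CPM (A3) before induction, with a median of 2.73 in the other lines, and C6, at 19.6 CPM, overlapped. Of 31 tested Wnt pathway genes, Sfrp4 was apart and higher and Fzd1 apart and lower, with a median log2 difference of -0.50, and on day 8 Wnt10a was apart and higher among 34 with a median of 0.27. None of 34 and 36 tested BMP and TGF-beta genes was apart, with medians of -0.17 and -0.02. Among chemokine and inflammatory genes Cxcl10 was apart and higher on day 8, the only one of 26, with a median of 1.46 over the list. It stood at 213 to 327 CPM, against 8.95 to 204.5 CPM.

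Mitotic genes did not set the lines apart in either stage. None of 29 tested members was apart, and their median log2 difference was 0.06 before induction and 0.24 on day 8. Over all genes at most 1.03% were apart in one direction in a stage, so none of 29 was near that share. Mki67, a marker of dividing cells, stood at 385, 489, 383 and 434 CPM before and 268, 253, 275 and 281 CPM after differentiation, against medians of 495 and 219. The p53 and cell cycle inhibitor list (19 and 18 tested, medians -0.09 and 0.00), the integrated stress response list (16 tested, medians 0.19 and -0.21) and the contractile list (15 and 14 tested, medians -0.43 and 0.03) held no gene that was apart.

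Summed markers of other cell types overlapped between the sets, apart from those of mesothelium before induction. The summed mesothelial markers were 72.2 to 84.7 CPM in the undifferentiated 4 lines and 2.70 to 55.5 in the others. Krt19 made up most of that sum, and Msln, a defining mesothelial gene, held 1.06 to 11.1 CPM against 0 to 1.47, while Muc16 had 0 counts in the 4 lines. On day 8 the sums overlapped, at 7.98 to 13.7 against 1.94 to 11.6 CPM. The part of mesothelial RNA in the differences was not tested. Summed immune markers were 3.63 to 7.13 CPM before and 5.70 to 8.01 CPM after differentiation in the 4 lines, with Emr1, Cd3e and Tyrobp at 0 in both, and summed epithelial markers were 0.620 to 1.62 and 1.56 to 2.41 CPM. Endothelial sums were 12.2 to 14.8 and 25.2 to 40.2 CPM, led by Egfl7, and Pecam1, a defining endothelial gene, held 0.0443 to 0.238 CPM before induction. Of single markers Epcam, an epithelial adhesion protein, was apart and higher on day 8 and Scx, a tendon factor, before induction. None of 5 tested X- and Y-linked genes was apart in either stage, with medians of -0.14 and -0.26. Summed skeletal muscle markers were 1.59 to 3.01 and 9.95 to 33.2 CPM, pericyte and smooth muscle markers 329 to 631 and 317 to 508 CPM, Schwann and neural markers 54.8 to 72.6 and 110.3 to 163 CPM, and chondrogenic and osteogenic markers 118 to 309 and 109 to 144 CPM, each within or overlapping the range of the other 16 lines.

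The change from undifferentiated to day 8 was taken per line as a difference of log2 CPM. In 190 of 15628 genes (1.22%) it was higher in each of the 4 lines than in each of the other 16 by the same rule, and in 17 (0.109%) it was lower. Without A3 the count of 207 became 517, without C2 it became 322, and without C6, D5 and D2 it became 1044. Pparg was among the 190, with a mean log2 change of 4.54 in the 4 lines and 2.92 in the others, as were Zfp423 and Zfp467, 2 more of the 31 adipogenic factors, while the change of Klf5 was apart and lower. The lower start of Pparg and Zfp423 enters this change by construction.

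The change was apart and higher in 2 of 30 collagens, Col6a3 and Col15a1, and in 2 of 46 other matrix genes, Eln and Serpinf1, beside 1.22% of all genes. Col15a1, a collagen of basement membranes, went from 2.22, 0.443, 0.477 and 0.419 CPM to 747, 779, 626 and 410.0 CPM in A3, C2, C3 and C5, and in the other lines from a median of 9.51 to one of 299.6 CPM. Lrrc17, a secreted leucine-rich repeat protein, went from 0.222 to 1.39 CPM in the 4 lines to 16.3 to 26.6 CPM, a mean log2 change of 5.41 beside 0.50 in the others. Auts2, a regulator of neuronal genes, had a mean log2 change of 3.79 beside -0.99, and Stk32b, a kinase, of 4.62 beside 0.02. In Lrrc17 and Auts2 the other 16 lines mostly started higher, with medians of 6.01 and 3.92 CPM.

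Changes that were lower in the 4 lines were small in number. St3gal6, a sialyltransferase, went from 1.92 to 2.66 CPM to 3.61 to 4.85 CPM, a mean log2 change of 0.93 beside 3.50 in the other lines. Gyg, glycogenin, the primer of glycogen, had a mean log2 change of -0.07 beside 1.41, with day 8 values of 42.9, 63.5, 60.5 and 65.1 CPM against a median of 122. Hspa4l, a heat shock protein, had a change of -2.14 beside -0.65, from 111 to 154 CPM down to 22.3 to 34.1 CPM. Before induction it lay above all 16 other lines, whose median was 57.9 CPM, and on day 8 within their range. The small nucleolar RNA Snora17 (-3.38 beside -2.04) and Nop10 (-0.98 beside 0.20), a protein of the same class of particles, completed the 5 genes with the largest such differences. Gyg, at 57.1 to 64.3 CPM, and Nop10, at 64.9 to 77.3 CPM, also started above the other lines' medians of 43.7 and 53.3 CPM. The higher start of Hspa4l, Gyg and Nop10 enters these changes by construction.

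Within the 4 lines, 5219 of 14309 tested genes rose (36.5%) and 4894 fell (34.2%) between the stages by the quasi-likelihood test of edgeR, with p-values adjusted over all genes after Benjamini and Hochberg and a threshold of 0.05. These p-values measure only the spread between the libraries of 4 lines, which may be technical in part. Where the line entered as a replicate block, 10872 genes were called in place of 10113. Since the lines were chosen on the markers, their changes are a description. The log2 fold change was 4.55 (SE 0.24) for Pparg, from a low start, 1.56 (SE 0.41) for Plac8, from a high start, and -0.54 (SE 0.30) for Cd34, and Zic1 had too few counts for a fit. Cebpa, also low in these lines before induction, had a log2 fold change of 6.41 (SE 0.25).

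All 38 genes of lipid storage and fat cell hormones rose, their median being 7.02 on the log2 scale beside 0.02 over all tested genes, and of 6.97 when the 6 genes without a count before induction are set at their lower bound. Plin1, the main coat protein of the fat droplet, had 0 counts in the 4 undifferentiated libraries and 245, 365, 288 and 233 CPM on day 8, at least 2305-fold higher against 3 counts per library. Fabp4 rose by 8.63 (SE 0.27, adjusted p = 1.41e-08) on the log2 scale. Of 21 tested thermogenic and brown fat genes 16 rose, 1 fell and 4 were not called, with a median of 2.85. Of these, Prdm16 had a log2 fold change of 2.43 (SE 0.70) and Ppara of 3.37 (SE 0.51). Acacb, of the lipid storage list, had 5.02 (SE 0.23). Each had a mean day 8 level below the other lines' median.

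All 30 interferon and antigen presentation genes rose in the 4 lines, and the median of their log2 fold changes was 5.91. Rsad2 went from 0.601, 0.0443, 0.437 and 0.587 CPM to more than 200 CPM in each line (log2 fold change 9.09, SE 0.30). Mx1 and Oas1a had no more than 2 counts in any of the 4 undifferentiated libraries. Of 26 chemokine and inflammatory genes 18 rose and 5 fell, with a median of 3.07. Ccl11, the chemokine eotaxin, stood at 33.7, 9.31, 13.8 and 6.91 CPM on day 8 (log2 fold change 7.74, SE 0.88), and the log2 fold change of Cxcl5 was -2.44 (SE 0.52).

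Genes picked for their high level before induction mostly had lower levels on day 8, which is a description since that start picked them. The log2 fold change was -1.81 (SE 0.29) for Asb4, -1.56 (SE 0.29) for Six2 and -1.19 (SE 0.38) for Tbx20. Klhl1, Krt19, Gap43 and Slc38a1 had -4.67, -3.87, -3.28 and -2.66, each lower in 4 of 4 lines, and Aldh1a1 had 0.83 (SE 0.37). Asb4 and Six2 stayed above all other lines on day 8, at 16.2 to 37.9 and 4.43 to 13.3 CPM against at most 6.38 and 3.41.

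Patterning and matrix lists held members that rose and members that fell in the 4 lines. Of 40 tested patterning factors 6 rose and 16 fell, with a median log2 fold change of -0.35, and of 30 Hox genes 5 rose and 6 fell, with a median of 0.11. Of 27 collagens 14 rose and 5 fell, with a median of 1.12, and of 44 other matrix genes 18 rose and 10 fell, with a median of 0.33. Over all tested genes 36.5% rose and 34.2% fell, and the share of other matrix genes that rose was near that. The log2 fold change was 9.26 (SE 0.69) for Dcn and 9.45 (SE 0.53) for Col15a1. Contractile genes mostly fell, 9 of 14 with 3 that rose and a median of -1.63. Acta2, smooth muscle actin, went from 1250.4, 1751, 1299.7 and 1111 CPM to 44.4, 169, 59.6 and 61.7 CPM (log2 fold change -4.01, SE 0.43, adjusted p = 3.63e-05). Of 29 mitotic and replication genes 20 fell and 4 rose, with a median of -0.65, and Mki67 fell by 0.65 (SE 0.09, adjusted p = 0.000167) on the log2 scale.

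Taken gene by gene over the whole profile, the 4 lines were more like each other than like any other line before induction. Pearson's r between lines, over 13998 genes each centred on its mean over the 20 lines, ranged from 0.19 to 0.81 within the 4 lines with a median of 0.51, and from -0.39 to 0.15 between them and the other 16. C3 and C5 were closest at 0.81, and A3 and C2 least alike at 0.19. Since the lines were chosen on these libraries, and centring makes one line's excess the others' deficit, these values are a description. On day 8, over 15241 genes, r within the 4 lines was 0.50 to 0.81 with a median of 0.68, and with the other lines it reached 0.58 for C5 and C6. For A3 the order on day 8 was C3 (0.75), C5 (0.72), C6 (0.54), D5 (0.52) and only then C2 (0.50).

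**Figure D5:**
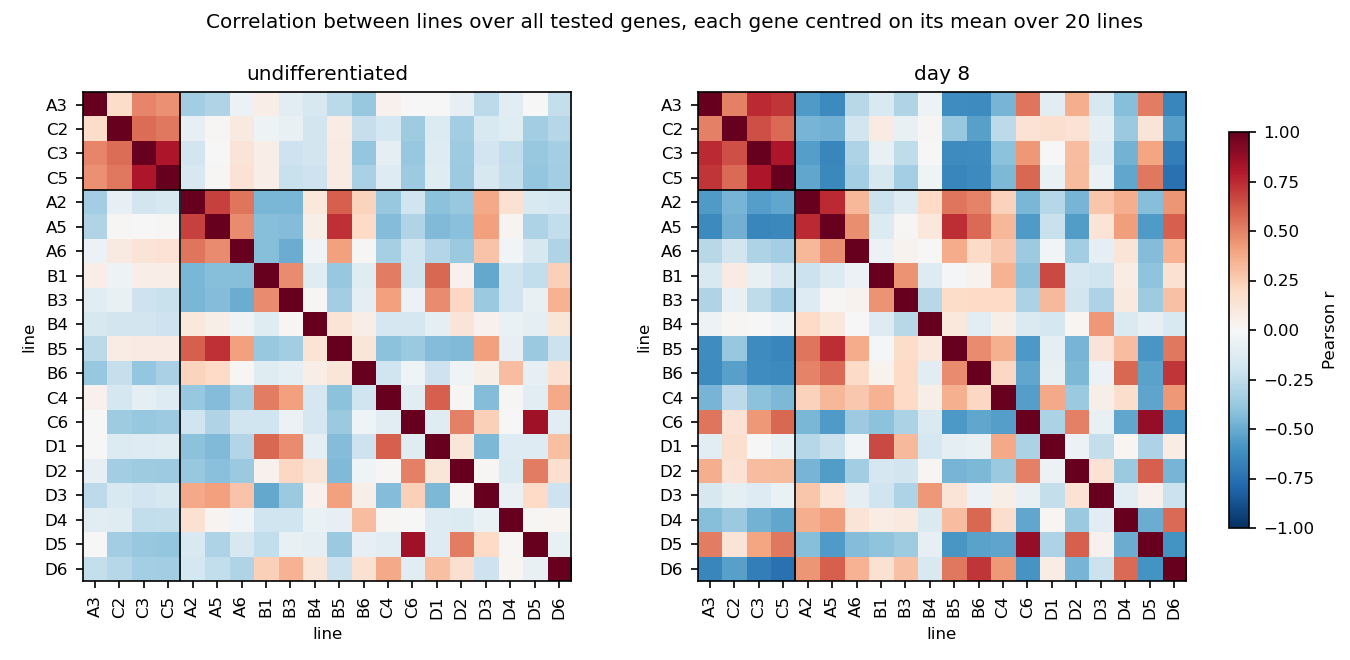
Pearson correlation between lines over all tested genes, each centred on its mean over 20 lines, in undifferentiated (left) and day 8 libraries (right); lines A3, C2, C3 and C5 come first and are framed by black lines. The 4 lines form a block in both stages, and on day 8 C6 and D5 also correlate with A3, C3 and C5.

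The 4 lines were not alike throughout. Before induction A3 held 80 genes at least 4-fold higher than each of the other 3 lines and C2 held 103 at least 4-fold lower, while C3 and C5 held none that were higher and 4 and 2 that were lower. On day 8 the counts were 7 higher and 15 lower for A3, 17 and 58 for C2, 4 and 3 for C3, and 15 and 3 for C5. Grb10, an imprinted adaptor of the insulin receptor, was 73.3 CPM in undifferentiated A3 and 0.620, 0.556 and 3.23 CPM in C2, C3 and C5, with a median of 141 in the other lines. Day 8 Grb10 was 146 CPM in A3 and 3.36, 10.1 and 9.62 CPM in the other 3. Before induction A3 thus resembled the other 16 lines in Grb10, Pdgfra and Thy1 more than C2, C3 and C5 did. On day 8 this did not hold for Pdgfra. There C2, the lowest of the 4 at 145 CPM, was near the other lines' median of 140.6 CPM, and the highest of the 4 reached 420 CPM.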

How the data were processed

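Poly(A) RNA of 20 lines in 2 stages was sequenced as 100 bp paired ends from strand-specific libraries, per the labels' protocols. The authors deposited raw counts per gene symbol, made with STAR and HTSeq on build mm9, per the submitters' processing notes. The sources used here name no versions, annotation or strand setting, so overlapping and antisense genes are uncertain. The 5 closing tallies of each file (reads outside genes, ambiguous, low quality, unaligned, aligned to several places) stayed out of library sizes. In differentiated files the low quality and unaligned tallies are 0.

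Of 29912 symbols shared by all files, 125 that differ from another only in letter case were left out, which kept 29787, 6941 of them at 0 throughout. Low genes were removed with filterByExpr (minimum count 10) in edgeR 4.0.16 under R 4.3.3, TMM gave the library scaling, and a prior count of 2 went into log2 CPM. Stage change within the 4 lines was tested with edgeR's quasi-likelihood test, unblocked, and was tested on simulated data. Same-numbered libraries come from the same line, and their deviations correlated at 0.29 to 0.47 in the 4 lines. DESeq2 1.42.0 and limma 3.58.1 (voom), size factors, plain totals, filters, prior count 0.5 and left-out lines were alternatives.

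The 4 lines, the 28 gene lists and the rules were chosen with earlier results of these data known. The text names the markers, the 10 genes apart in each direction with the largest difference in each stage (5 for the change) and at least 5 CPM in the higher set, the 4 members of each list with the largest difference, and a panel of fat cell genes (136 in all, some of which are not reported here). Other genes given with values, such as Zfp423, Thbs2, Cxcl10, Msln, Pecam1, Oas1g, Isg15 and Ifit3, were chosen after their values were seen. Promoters were matched by symbol to RefSeq on GRCm38.p6. No coordinates of build mm9 are used.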

Additional observations from a re-analysis of the deposited data

Results flagged for a closer look

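Within the 4 lines, 1 line stood apart from the other 3 in 15 of 209 gene and stage groups tested by Dixon's gap ratio, of which chance alone gives about 1 in 20. Most concern line C2. Before induction C2 was the low line for Ldb2 (4.30 CPM), Hoxc9 (0.399 CPM) and Trp53inp1 (12.0 CPM), and A3 was the low line for Tbx15 (223 CPM) and Shox2 (80.3 CPM). On day 8 C2 was low for Gm14403 (4.83 CPM), Hoxc9 (0.955 CPM), the matrix protease Mmp9 (28.6 CPM), the nerve growth factor receptor Ngfr (21.9 CPM) and Pdgfra (145 CPM). C2 was high on day 8 for the lipid droplet protein Plin4 (286 CPM) and the phosphatase Alpl (103 CPM). C5 was high for Auts2 (4.06 CPM) and the Wnt agonist Rspo3 (21.6 CPM), and A3 was low for Hspa4l (22.3 CPM).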

How the results depend on the processing

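No count of calls and no named gene's stage change reversed its direction under the alternatives run. The direction of a named gene's difference between the sets could turn. For Fabp4 on day 8 it did so against only the other lines of letters A and C. Medians of lists turned as well, in 27 of 498 recomputed. Against only the other lines of letters A and C, the median of the lipid storage list turned from -0.20 to 0.35 on day 8 and from -0.04 to 0.41 for the change, and that of the patterning factors before induction from -0.17 to 0.06. The cause was not tested. Genes apart numbered 116 before induction, 186 on day 8 and 207 for the change. With only the 5 other lines of letters A and C for comparison they numbered 296, 507 and 600, and without C6, D5 and D2 they numbered 1132 on day 8 and 1044 for the change. Leaving out single lines gave 116 to 259, 182 to 300 and 207 to 517. Fewer lines make the rule easier to meet by construction. The count for the stage change within the 4 lines stayed within 1.5 times of 10113, from 8662 without C3 to 11171 with no filter, with 10178 in DESeq2 and 10872 when the line was a replicate block. Among stage changes of named genes the replicate block added 16 calls, while over all alternatives 32 values lost their call, most often without C3 (11) and without C5 (6). Levels near 3 counts per library, such as those of Zic1 and Meg3 in the 4 lines, are limited by depth.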
